A study of Homo sapiens with 6 samples.

Results

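The 44 genes described here encode the machinery that takes a cell through mitosis: mitotic cyclins and kinases, the chromosomal passenger complex, the spindle checkpoint, kinetochore proteins, mitotic kinesins and the proteins of the spindle midzone. They were taken as a list of gene symbols. All 44 matched 1 gene each among the 58735 genes of the table, through 346 annotated transcripts. The samples were 6 RNA-seq libraries labelled as CCRF-SB, an established lymphoblast-like line from a B cell acute lymphoblastic leukemia. In the 3 siControl libraries the cells had received an empty lentiviral vector, and the labels give their genotype as WT. In the 3 siANXA1 libraries the cells had received a lentiviral silencing construct against ANXA1, and the labels give ANXA1 as down-regulated. Both groups were grown in RPMI-1640 with serum and labelled day 5, and puromycin selection is described for the silenced cells. No construct sequence or clone is named, and nothing says that replicates were separate cultures, so a p-value measures the spread between these libraries, which may be technical. The series title names proliferation as a process that ANXA1 was studied for, and these genes are transcribed in dividing cells.

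Most mitotic genes are silent in resting cells and are switched on together in late S phase and G2. The cyclin B and CDK1 kinase drives entry into mitosis, kinetochores attach chromosomes to the spindle, and the checkpoint holds the anaphase-promoting complex until every chromosome is attached. The complex then marks cyclin B and securin for destruction, and the chromatids separate. Much of their shared timing runs through 2 promoter elements: the CHR (cell cycle genes homology region), which is bound by the MuvB core of the DREAM, MYBL2 and FOXM1 complexes, and CCAAT boxes, which are bound by NF-Y.

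Levels within a gene are CPM, its share of the counts with a gene on the CPM scale after TMM scaling of library sizes, and levels compared between genes are TPM, computed here from the deposited counts and transcript lengths. CPM of single transcripts, and of genes that overlap a member or are its pseudogenes, is given without TMM scaling. The smallest library, siANXA1 replicate 2, had 21333951 counts with a gene and the largest, siANXA1 replicate 1, had 44148505. Values per library are given in the order of replicates 1 to 3. The silenced gene ANXA1 read 3696, 3696 and 3756 CPM in siControl, and 1606, 1723 and 1712 CPM in siANXA1 (edgeR adjusted p = 0.0571). The labelled cell type did not show in the markers: 14 of 15 B lineage genes stayed under 5 CPM in every library, with IGLL1 and VPREB1 at 0, and the exception was CD24, which other cells also express. All 15 erythroid genes were present, at a summed 2173 to 3682 CPM in siControl and 6093 to 7204 CPM in siANXA1, both without TMM. TFRC and HBE1 held much of these sums. On the same scale TFRC read 1317, 2148 and 1325 CPM in siControl, and 1128, 1861 and 1064 CPM in siANXA1. HBE1 read 4.83, 646 and 9.44 CPM in siControl, and 3235, 2196 and 2939 CPM in siANXA1. The sums therefore do not describe every gene of the list. Summed T lineage genes reached 12 to 40.6 and 15.9 to 39.6 CPM, and myeloid genes 50.7 to 94.9 and 50.7 to 68.9 CPM. The part of these cell types in the results below was not tested, and in bulk RNA fewer dividing cells and less RNA per cell cannot be told apart. The libraries also stood apart in a way that crossed the groups: on the first principal component of all genes (39.9% of the variance), siANXA1 replicate 2 lay on the side of siControl replicates 1 and 2, whereas siControl replicate 3 lay among the remaining siANXA1 libraries.

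The promoters of the members were searched for the CHR and CCAAT elements named above. These were picked as known elements of mitotic genes, so finding them is a description and no independent support. RefSeq windows from 250 bases before to 50 bases after the transcript start (GRCh38.p14) were found for 37 members and searched on both strands. The CHR core TTTGAA was present in 27 of 37 members (73.0%), against 18.2% of all 27305 genes with a window (15.2% of all 35116 windows). Counted per gene in the same way, CCAAT was present in 31 of 37 (83.8%), against 39.7%, and both motifs together in 23 of 37 (62.2%), against 7.26%. The variant TTCGAA was found in 3 of 37, against 1.82%. The CHR core lay within 50 bases of the start in 25 of 37 members (67.6%), against 5.87% of all genes. The 71 CCAAT matches had a median position 77 bases before the start, where a box in overlapping windows of a gene was counted in each. In 19 of 37 members there were 2 or more CCAAT matches, against 12.9% of all genes. AURKB, BUB1, CCNA2, CCNB1, CDC25B, CENPE, KIF20A, KIF2C, PTTG1 and SPC24 held no TTTGAA in this window, which says only that these letters are not there.

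The sites around the core nearest the start are shown for 9 of the 16 members with the smallest p in the test below, as 30 bases read along the gene, with the CHR core in capitals (TTCAAA is the core on the other strand). They show the same short element close to the start in genes of several roles.
HMMR, chr5:163460598-163460627, plus strand: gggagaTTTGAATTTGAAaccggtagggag
INCENP, chr11:62123989-62124018, plus strand: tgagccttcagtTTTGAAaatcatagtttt
NDC80, chr18:2571542-2571571, plus strand: ccggcggagaatTTCAAAttcgaacggctt
PRC1, chr15:90994538-90994567, minus strand: cccgtggcgcggTTTGAAattttgcggggc
CCNB2, chr15:59105105-59105134, plus strand: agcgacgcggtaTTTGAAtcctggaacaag
CENPA, chr2:26786026-26786055, plus strand: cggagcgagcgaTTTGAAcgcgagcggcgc
KIF20B, chr10:89701602-89701631, plus strand: tggccgccattgTTTGAATTTGAAaacggt
KIF14, chr1:200620733-200620762, minus strand: gcggggcgcccaTTCAAAttgcggccttct
MKI67, chr10:128126435-128126464, minus strand: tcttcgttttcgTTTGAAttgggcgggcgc
HMMR and KIF20B each carried the core as a direct repeat with no base between the copies, at -28 and -22 from the start in HMMR and at 25 and 31 in KIF20B. In NDC80 the core at -3 was followed by the variant TTCGAA at 4.

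Further upstream, CCAAT boxes are shown for 2 genes of this set, over a stretch that lies outside annotated GENCODE exons, with CCAAT (or ATTGG, the same box on the other strand) in capitals.
INCENP, chr11:62123768-62123972, plus strand: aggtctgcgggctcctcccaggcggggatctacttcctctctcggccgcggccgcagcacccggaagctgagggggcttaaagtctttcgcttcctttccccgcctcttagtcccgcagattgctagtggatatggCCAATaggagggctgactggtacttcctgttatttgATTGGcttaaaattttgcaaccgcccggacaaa
CCNB2, chr15:59104896-59105077, plus strand: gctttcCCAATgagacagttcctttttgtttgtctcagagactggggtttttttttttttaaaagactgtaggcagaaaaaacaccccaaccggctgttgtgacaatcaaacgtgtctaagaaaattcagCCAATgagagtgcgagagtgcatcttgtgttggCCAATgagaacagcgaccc
CCNB2 showed 3 boxes in this stretch, of 4 in its window, and INCENP 2 of 3.

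**Figure D1:**
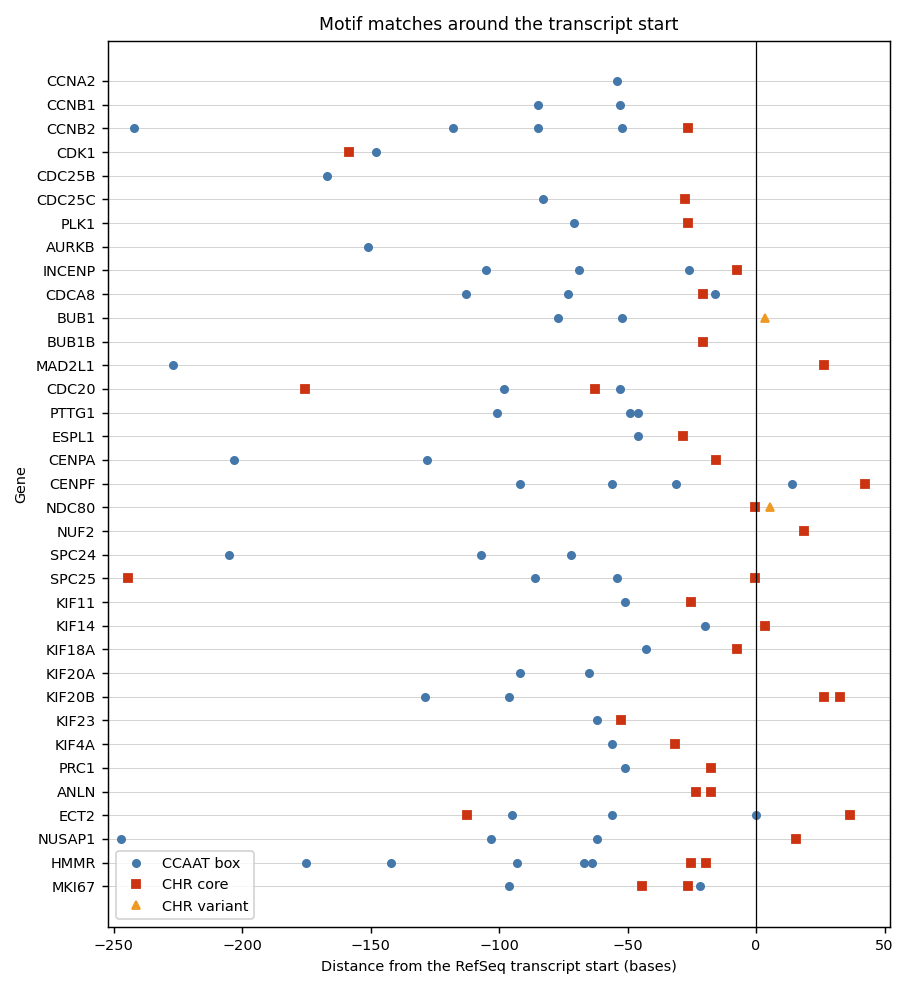
Positions of CCAAT (circles), the CHR core TTTGAA (squares) and the variant TTCGAA (triangles) for the members with a match, against distance in bases from the RefSeq transcript start, using the lowest-coordinate window of each gene. The squares gather within 50 bases of the start in most genes, and the circles mostly lie before them.

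Between siControl and siANXA1, no member of the list passed the test. In edgeR's quasi-likelihood test, adjusted over 17947 genes, 0 of 44 members passed an adjusted p of 0.05, where 0.0111% of all genes (2 of 17947) did. At an unadjusted p under 0.05, 1 member was lower, HMMR, and 0 were higher, against 4.52% of all genes lower and 3.4% higher. DESeq2 called 1 member, again HMMR, where it called 1.67% of the 15449 genes to which it gave an adjusted p. The groups did not overlap in 4 members that read lower in siANXA1 (CCNB2, HMMR, KIF20A and TPX2) and in 3 that read higher (BIRC5, KIF14 and PRC1). Over all genes 7.24% were separated downwards and 7.41% upwards, so these shares are near the background.

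The members' log2 fold changes were centred on 0, with 23 negative and 21 positive and a median of -0.02, beside 0.01 over all genes tested. In 36 of 44 the log2 fold change was smaller than 0.5 in either direction. The median size, regardless of sign, was 0.16, compared with 0.32 over all genes and 0.25 over the 10680 genes at a mean of 5 CPM or more. Most members stood far above 5 CPM, and no background matched for their level was drawn, so the smaller median is not shown to be particular to them. Together the members made up 0.568%, 0.579% and 0.638% of all gene counts in siControl, and 0.554%, 0.618% and 0.583% in siANXA1. The groups overlapped in this share.

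**Figure D2:**
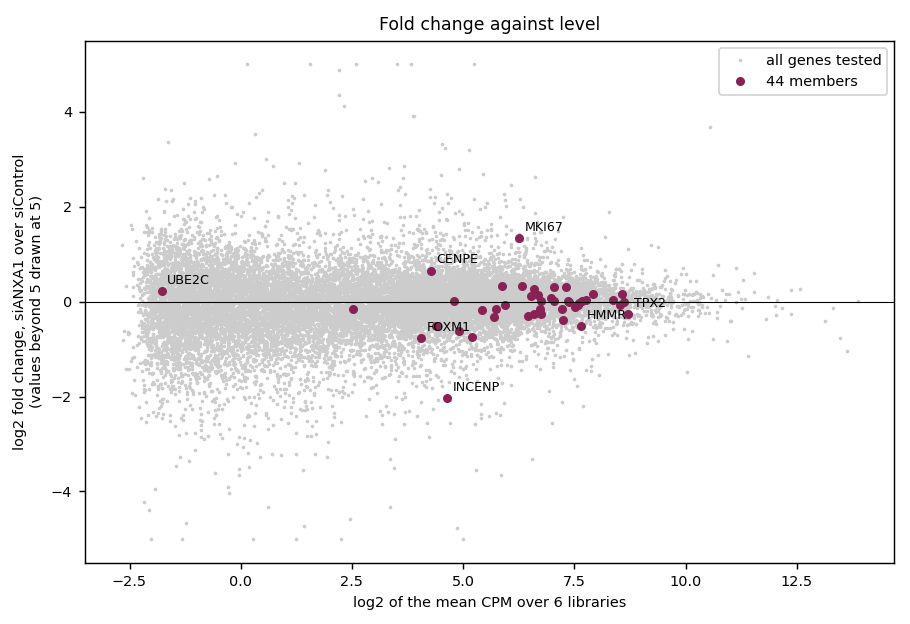
Log2 fold change of siANXA1 over siControl against log2 mean CPM for all 17947 genes tested (grey) and the 44 members (dark), with 7 members named. Most members lie between -0.5 and 0.5, while INCENP at -2.04 and MKI67 at 1.35 lie furthest out.

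HMMR had the smallest p of the members. It encodes a microtubule-associated protein of the spindle, also known as a hyaluronan receptor, and lies on chromosome 5 from 163460203 to 163491945. It read 219, 255 and 233 CPM in siControl, and 157, 169 and 169 CPM in siANXA1. Every siANXA1 library lay below every siControl library, at 236 ± 18.4 against 165 ± 7.05 CPM (SD, n = 3). The fold was 0.700, a log2 fold change of -0.51 ± 0.13 (SE; edgeR unadjusted p = 0.00575, adjusted p = 0.605), and DESeq2 gave an adjusted p of 0.0398. Over the alternatives tried, its log2 fold change stayed between -0.62 and -0.46 and its adjusted p ranged from 0.0398 to 0.999.

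TPX2 encodes the spindle assembly factor that activates Aurora A on microtubules. It lies on chromosome 20 from 31739271 to 31801805. Its libraries read 442, 448 and 485 CPM in siControl and 377, 391 and 380 CPM in siANXA1, again without overlap. The log2 fold change was -0.26 ± 0.11 (SE; edgeR adjusted p = 0.627), and 1 transcript, ENST00000300403, held 98.5% to 100% of its counts in every library.

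The 7 genes of the spindle, midzone and chromosome surface had 3 negative and 4 positive log2 fold changes. PRC1, the microtubule bundler of the spindle midzone, read 75.6, 79.5 and 58.5 CPM in siControl and 89.8, 87.2 and 89.6 CPM in siANXA1. Its siANXA1 libraries were all higher, by 0.32 ± 0.17 on the log2 scale (edgeR adjusted p = 0.653), and by 0.19 without siControl replicate 3. PRC1 overlaps the gene AC068831.7, which lies on the same strand at a mean of 90.2 CPM, so its value is uncertain. MKI67, the Ki-67 antigen that coats mitotic chromosomes and is the usual proliferation marker, read 18.9, 41.7 and 69.0 CPM in siControl and 28.1, 267 and 35.1 CPM in siANXA1. Only siANXA1 replicate 2 was high, so the log2 fold change of 1.35 ± 0.96 (edgeR adjusted p = 0.723) became -0.45 without that library. The remaining genes of the midzone and cytokinesis overlapped between the groups. The actin-binding scaffold ANLN stood at 123 ± 25 and 130 ± 12.6 CPM. ECT2, which activates RhoA for the cleavage furrow, stood at 98.1 ± 38.6 and 107 ± 14.3 CPM. NUSAP1, a spindle microtubule binder, stood at 166 ± 8.90 and 165 ± 19.2 CPM (SD, n = 3 for each).

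**Figure D3:**
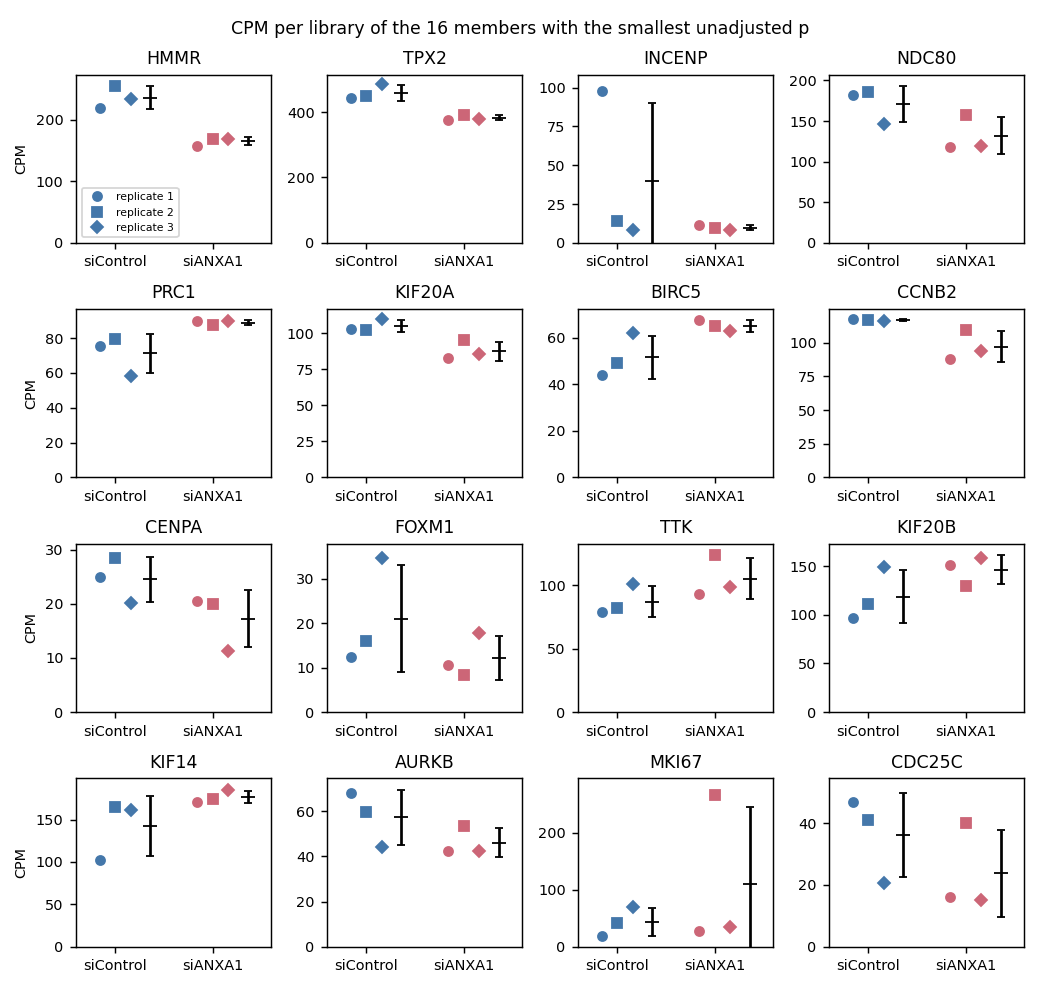
CPM of the 16 members with the smallest unadjusted p in each library (circle, square and diamond for replicates 1, 2 and 3; blue siControl, red siANXA1), with the group mean and SD beside them and each axis starting at 0. HMMR, TPX2, KIF20A and CCNB2 sit lower in all 3 siANXA1 libraries, while the means of INCENP and MKI67 rest on 1 high library each.

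Among the cyclins and kinases of mitotic entry, the groups overlapped in 8 of 9 genes, and 7 of 9 log2 fold changes were negative (median -0.15). CCNA2, cyclin A2, read 351, 369 and 463 CPM in siControl and 395, 397 and 392 CPM in siANXA1, a log2 fold change of 0.00 ± 0.14 (SE). CCNB1, cyclin B1, stood at 228 ± 84.6 and 255 ± 37.8 CPM, and its catalytic partner CDK1 at 56.6 ± 5.32 and 50.9 ± 3.27 CPM. CCNB2, cyclin B2, was the gene without overlap: it read 117, 117 and 116 CPM in siControl and 87.8, 110 and 93.7 CPM in siANXA1. The siControl libraries were nearly identical and all siANXA1 libraries lay below them, with a log2 fold change of -0.27 ± 0.14 (edgeR adjusted p = 0.66).

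Several regulators of mitotic entry varied widely from library to library. PLK1, the polo-like kinase of mitotic entry, varied less than the others named here, at 195 ± 38.3 and 186 ± 9.99 CPM. AURKA, the spindle-pole kinase, read 16.9, 12 and 110 CPM in siControl and 36, 17.3 and 29.2 CPM in siANXA1. Its SD within siControl, 55.4 CPM, exceeded its mean there of 46.4 CPM. FOXM1, the forkhead factor that activates late cell cycle promoters, read 12.3, 16 and 34.7 CPM in siControl and 10.7, 8.31 and 17.8 CPM in siANXA1, with a log2 fold change of -0.78 ± 0.48 (edgeR adjusted p = 0.686), which was -0.21 without siControl replicate 3. AURKA and FOXM1 were both highest in siControl replicate 3. CDC25C, a phosphatase that activates CDK1, read 46.7, 41.0 and 20.6 CPM and 16.1, 40.1 and 15.0 CPM (edgeR adjusted p = 0.751). Its log2 fold change of -0.61 was -0.39 without siControl replicate 1 or siANXA1 replicate 1, -0.36 without siANXA1 replicate 3 and -1.21 without siANXA1 replicate 2. CDC25B, which acts earlier, stood at 63.2 ± 25.6 and 60.01 ± 24.1 CPM.

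The chromosomal passenger complex joins the kinase AURKB to its scaffold INCENP and to BIRC5 (survivin) and CDCA8 (borealin), which place it at centromeres. Of these 4 genes 3 had a negative log2 fold change, with a median of -0.17. CDCA8 stood at 198 ± 4.54 and 194 ± 10.8 CPM. AURKB read 68.2, 59.6 and 44.3 CPM in siControl and 42.3, 53.7 and 42.5 CPM in siANXA1, with overlap (log2 fold change -0.31 ± 0.22, edgeR adjusted p = 0.715). The log2 fold change of AURKB was -0.18 without siControl replicate 1 and -0.48 without siControl replicate 3. BIRC5 read 43.8, 49.1 and 61.9 CPM and 67.5, 64.9 and 62.6 CPM, so that all siANXA1 libraries were higher, by 0.33 ± 0.18 on the log2 scale (edgeR adjusted p = 0.659). INCENP read 97.9, 13.8 and 8.56 CPM and 11.5, 9.68 and 8.19 CPM. Its siControl replicate 1 stood 7.08 times above the next library, and the log2 fold change of -2.04 ± 0.92 (edgeR adjusted p = 0.641) became -0.20 without it.

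Per length, the 4 passenger subunits were not level. CDCA8 stood at 148 TPM over the 6 libraries, AURKB at 93.3, BIRC5 at 63.0 and INCENP at 13.7 TPM. INCENP was the lowest subunit in 5 of 6 libraries; in siControl replicate 1 it reached 48.3 TPM, beside 47.7 for BIRC5. In the NDC80 complex, which couples kinetochores to microtubule ends, NDC80 stood at 130 TPM, SPC25 at 122 and NUF2 at 99.1 TPM, with overlapping ranges. SPC24, the partner of SPC25, stood at 6.60 TPM, far below the other subunits in every library. Rows without a gene held 16.9% to 17.7% of each library's counts, and whether reads of SPC24, or of UBE2C below, were placed there was not tested.

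**Figure D4:**
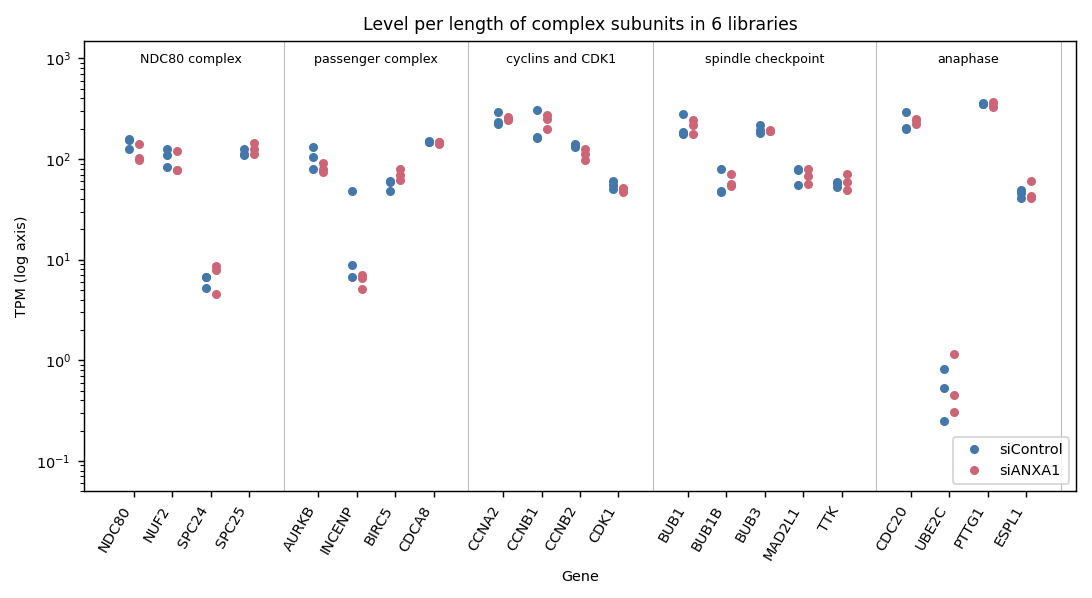
TPM (log axis) of subunits and regulators in each of the 6 libraries, blue siControl and red siANXA1, grouped by complex or step. SPC24 at a mean of 6.60 TPM and UBE2C at 0.584 TPM lie well below the genes of their own step, while the colours overlap in most genes.

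The groups overlapped in all 7 kinetochore genes (median log2 fold change -0.16, with 4 of 7 negative). NDC80 and NUF2 ordered the libraries in a similar way. NDC80 read 182, 186 and 146 CPM in siControl and 119, 158 and 119 CPM in siANXA1 (log2 fold change -0.38 ± 0.18, edgeR adjusted p = 0.644). NUF2 read 103, 112 and 76.5 CPM and 69.4, 104 and 64.1 CPM. Both were lowest in siANXA1 replicates 1 and 3 and next lowest in siControl replicate 3. SPC25 stood at 87.8 ± 6.61 and 95.8 ± 10.2 CPM and did not follow them, and SPC24 read 7.13, 7.34 and 3.71 CPM and 7.43, 5.07 and 3.74 CPM.

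CENPA, the histone H3 variant that marks centromeres, read 24.9, 28.5 and 20.1 CPM in siControl and 20.6, 20.0 and 11.2 CPM in siANXA1 (log2 fold change -0.51 ± 0.30, edgeR adjusted p = 0.673). That value was -0.27 without siANXA1 replicate 3 and -0.09 when only the most abundant transcript was counted. The groups met at about 20 CPM, so they overlapped. CENPA overlaps the gene SLC35F6 on the same strand, at a mean of 37.9 CPM, so the value of CENPA is uncertain. CENPF, a large outer kinetochore protein, stood at 358 ± 83.7 and 398 ± 40.4 CPM. CENPE, the kinesin that carries chromosomes to the spindle equator, read 5.53, 26.7 and 12.7 CPM and 22.5, 19.5 and 28.6 CPM, also with overlap.

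The groups overlapped in all 9 genes of the spindle checkpoint and anaphase control, whose median log2 fold change was 0.02. BUB1, a checkpoint kinase, stood at 328 ± 86.1 and 335 ± 26.7 CPM, its relative BUB1B (BubR1) at 107 ± 40.1 and 109 ± 19.8, and BUB3, which binds both, at 189 ± 4.44 and 176 ± 9.04 CPM. MAD2L1, which holds CDC20 inactive, stood at 158 ± 32.6 and 143 ± 35.2 CPM. TTK, the kinase at the head of the checkpoint, read 78.7, 82.5 and 101 CPM in siControl and 93.3, 124 and 99 CPM in siANXA1 (log2 fold change 0.27 ± 0.18, edgeR adjusted p = 0.707), and its log2 fold change was 0.14 without siANXA1 replicate 2.

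Downstream of the checkpoint, CDC20, the activator of the anaphase-promoting complex, read 187, 185 and 273 CPM and 230, 198 and 232 CPM. PTTG1 (securin) had the highest level per length of all members, 354 TPM, and read 164, 158 and 166 CPM in siControl and 160, 165 and 168 CPM in siANXA1. ESPL1, the separase that securin inhibits, stood at 131 ± 15.9 and 133 ± 22.2 CPM. UBE2C, the ubiquitin-conjugating enzyme of the complex, had 5, 11 and 14 counts in siControl and 7, 5 and 20 counts in siANXA1. At counts this low no difference in UBE2C was detectable (log2 fold change 0.22 ± 0.69, SE).

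Of the 8 mitotic kinesins (4 negative and 4 positive log2 fold changes, median -0.03), KIF20A and KIF14 were the ones whose groups did not overlap. KIF20A, which works in cytokinesis, read 103, 102 and 110 CPM in siControl and 82.5, 94.9 and 85.2 CPM in siANXA1 (log2 fold change -0.26 ± 0.14, edgeR adjusted p = 0.653). It overlaps CDC23 and BRD8 on the opposite strand, at 139 and 48.5 CPM. KIF14, also a kinesin of cytokinesis, read 102, 165 and 162 CPM and 171, 175 and 185 CPM, higher in every siANXA1 library (log2 fold change 0.31 ± 0.21, edgeR adjusted p = 0.711). Without siControl replicate 1 its log2 fold change was 0.11.

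KIF20B, a midzone kinesin, read 96.3, 111 and 149 CPM in siControl and 151, 129 and 158 CPM in siANXA1 (edgeR adjusted p = 0.71), with overlap. Its log2 fold change of 0.30 was 0.16 without siControl replicate 1 and 0.49 without siControl replicate 3. KIF2C, a microtubule depolymerase at centromeres, had the second highest level per length, 253 TPM, and read 392, 374 and 369 CPM and 344, 374 and 357 CPM. KIF11, the motor that separates the spindle poles, stood at 204 ± 12.7 and 205 ± 7.12 CPM. KIF4A, a chromosome-arm kinesin, stood at 112 ± 12.7 and 101 ± 12.7 CPM. KIF18A, which shortens kinetochore fibres, stood at 45.4 ± 2.61 and 40.1 ± 4.38 CPM, and KIF23, the centralspindlin kinesin, at 27.7 ± 10.5 and 28.0 ± 13.4 CPM (SD, n = 3 for each).

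The 2 sides of the first principal component separated more members than the groups did, and more of all genes. In 11 members (ANLN, AURKA, BUB1, BUB1B, CCNB1, CDC20, CDCA8, CENPF, ESPL1, KIF20B and KIF4A) siControl replicate 3 and siANXA1 replicates 1 and 3 all lay above the other libraries, and over all genes this held for 20.1%. In 7 members (AURKB, CDC25C, KIF18A, KIF2C, NDC80, NUF2 and NUSAP1) they all lay below, against 19.7% of all genes. CENPF, for example, read 305, 314 and 352 CPM in siControl replicates 1 and 2 and siANXA1 replicate 2, and 454, 413 and 429 CPM in the other libraries. These libraries were grouped from the same data, so the counts describe them and are no test.

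The direction of siANXA1 against siControl was also read within these sides. The side of siControl replicates 1 and 2 held siANXA1 replicate 2 as its only siANXA1 library. The other side held siControl replicate 3 as its only siControl library. Since the sides came from these same data, the counts and p-values by side describe the libraries and are no test. In 12 members (AURKB, CCNB2, CDC25C, CDCA8, FOXM1, HMMR, KIF18A, KIF20A, KIF2C, KIF4A, NDC80 and TPX2) the siANXA1 libraries lay below the siControl libraries on both sides, where 17.8% of all genes did. In 5 members (BIRC5, KIF14, KIF20B, PRC1 and SPC25) they lay above on both sides, where 18.5% did. With the side as a covariate in edgeR, 6 members were lower at an unadjusted p under 0.05 (FOXM1, HMMR, KIF20A, KIF4A, NDC80 and TPX2) and 1 was higher (PRC1), against 6.76% and 7.04% of all genes. In that fit 0 of 44 passed the adjusted threshold, and the smallest adjusted p, that of HMMR, was 0.233.

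**Figure D5:**
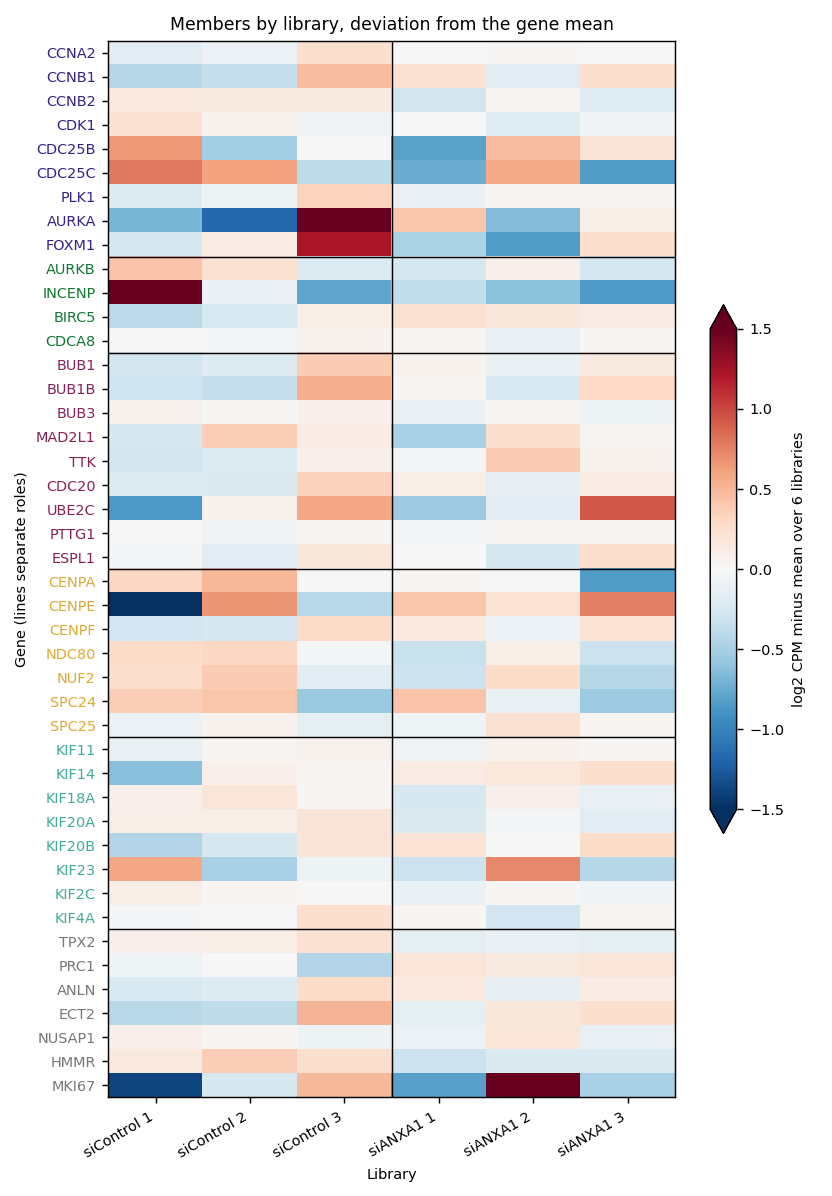
Deviation of log2 CPM from each gene's mean over the 6 libraries (colour, cut at 1.5 in either direction), members in rows by role and libraries in columns, with the groups divided by the vertical line. INCENP in siControl 1, AURKA in siControl 3 and MKI67 in siANXA1 2 stand out, and CENPF, CCNB1 and CDC20 share red in siControl 3, siANXA1 1 and siANXA1 3.

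Single libraries decided a few members. Of the 43 members at a mean of 5 CPM or more, 3 had a highest library at least 3 times the next: INCENP, MKI67 and AURKA. Over all genes at that level the share was 0.73%. The median coefficient of variation of the members was 19.3% in siControl and 11.7% in siANXA1, and 9 members were under 10% in both groups. Over the 6 libraries, RASSF7, POLQ, AC123768.5 and DDX46 were among the 5 genes outside the list most like the members' mean deviation, with Pearson r from 0.968 to 0.990. They share these 6 libraries and their depth, and the likeness is a description of them.

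Other genes of the mitotic pathway, listed by function, were counted in the same way, beside 4.52% of all genes lower and 3.4% higher at an unadjusted p under 0.05. Counts ran from 0 to 2 genes a list in each direction. In lists this small 1 gene shifts the share a great deal, and no list was tested against these shares. Of 20 inner kinetochore genes, 1 was lower at an unadjusted p under 0.05 and 0 were higher, with a median log2 fold change of -0.01; CENPU stood at 132 ± 14.6 and 102 ± 9.43 CPM. Of 17 other outer kinetochore genes 0 passed in either direction, with a median of -0.07. NSL1, of the MIS12 complex, stood at 89.2 ± 10.7 and 68.6 ± 5.65 CPM, and SKA1 at 80.3 ± 18.2 and 54.1 ± 13.1 CPM. Of 20 condensin and cohesin genes 1 was lower (NCAPH2, 57.4 ± 4.21 and 37.0 ± 11.7 CPM) and 1 higher (STAG2, 27.2 ± 4.63 and 168 ± 132 CPM, the latter from siANXA1 replicates 2 and 3, since replicate 1 read 19.0 CPM).

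Of 17 genes of the anaphase-promoting complex and its regulators, 2 were higher, CDC26 (16.6 ± 2.59 and 23.8 ± 1.04 CPM) and ANAPC13 (35.8 ± 7.79 and 53.9 ± 11.1 CPM), and 0 lower. Of 28 centrosome and spindle assembly genes 1 was higher, HAUS7 of the augmin complex (16.4 ± 1.40 and 26.9 ± 2.53 CPM). Of 18 regulators of mitotic entry and exit 1 was higher: WEE1, the kinase that restrains CDK1, read 40.3 ± 10.4 and 71.8 ± 19.8 CPM. Of 17 genes of the DREAM and MuvB complexes and NF-Y, 2 were higher and 1 lower; the lower was the NF-Y subunit gene NFYC, at 62.2 ± 1.55 and 38.4 ± 5.77 CPM (log2 fold change -0.70 ± 0.17). The higher genes were TFDP2 and RBL1, and RBL1, the pocket protein p107, stood at 9.91 ± 5.02 and 29.9 ± 15.4 CPM. No gene of these lists passed the adjusted threshold in edgeR, and NFYC and HAUS7 had an adjusted p of 0.605.

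DNA replication genes, the neighbouring programme of S phase, had 26 of 34 positive log2 fold changes and a median of 0.11, beside -0.02 for the mitotic members. Over all genes tested, 9070 of 17947 were positive, and 5745 of the 10680 at 5 CPM or more. In the fit that includes the side, the median of the list was 0.03. At an unadjusted p under 0.05, 1 was lower (CDC7, 90.0 ± 6.60 and 54.6 ± 4.79 CPM) and 1 higher (MCM6, 272 ± 58.0 and 400 ± 39.1 CPM). The difference between the lists was not tested.

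At the level of transcripts, 220 of the 346 member transcripts were tested and 0 passed (smallest adjusted p = 0.998), where 0.0017% of all 58702 transcripts did. At an unadjusted p under 0.05 there were 6 of the 220 member transcripts, beside 2756 of all 58702, a smaller share. Transcripts of protein coding type held between 93.3% and 96.2% of the members' counts in each library. The most abundant transcript was the same in all 6 libraries for 25 members, CENPF, NDC80, SPC25, KIF4A and TPX2 among them. For others the estimate went to 1 transcript or its neighbour: KIF14 was placed on ENST00000367350 in siControl replicates 1 and 3 (104 and 155 CPM) and on ENST00000614960 in the other libraries (160 to 173 CPM).

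Retained intron transcripts held 4.18%, 3.90% and 5.12% of the members' counts in siControl, and 4.73%, 1.79% and 5.33% in siANXA1. In BUB1, the retained intron transcript ENST00000466333 read 4.22 CPM in siANXA1 replicate 2 and between 131 and 235 CPM elsewhere. In that library the full-length coding transcript ENST00000302759 read 262 CPM, against 94.6 to 154 CPM in the others. The gene as a whole read 306 CPM there, which is after TMM scaling, unlike the transcript values. HMMR was carried by ENST00000393915 in all libraries, with 46.8% to 89.3% of its counts. Its transcript ENST00000358715 read 28.3, 17.5 and 26.3 CPM in siControl, and 0, 0 and 71.5 CPM in siANXA1.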

How the data were processed

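Total RNA of the 6 libraries was prepared with an Illumina TruSeq kit, per the labels' protocols. For each transcript the authors deposited an estimated count, given as a whole number without normalization. That these are estimated counts was read from the values, since overlapping transcripts of a gene each hold a share. Which aligner and counter were used, and whether strand was used, is not given in the sources used here. Only the mouse build mm10 is named in the submitters' processing notes, whereas all 44 members had the start and end of GENCODE release 29 on GRCh38, which the coordinates above follow. Rows without a gene (16014, with 16.9% to 17.7% of each library's counts) stayed out of library sizes and tests, so counts of a member placed there are not seen.

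Gene sums entered the quasi-likelihood test of edgeR 4.0.16 (R 4.3.3; robust glmQLFit and glmQLFTest after filterByExpr and TMM, group as the only term), two-sided, with Benjamini-Hochberg adjustment over 17947 genes at 0.05. SE was the log2 fold change divided by the root of F. Transcripts were tested in the same way. TPM used the deposited transcript lengths. Alternatives were 3 other scalings, DESeq2 1.42.0, limma-voom (limma 3.58.1), 2 other filters, the most abundant transcript, protein coding transcripts, the replicate number as a block, the side of the first principal component, and each library left out. The test was checked on simulated counts. It recovered 2 of 67 changes of 2-fold, 21 of 67 of 4-fold and 38 of 66 of 8-fold. The changed genes were drawn from all genes tested, whatever their level or spread, so these rates are not those of the members. A member without a call is still not shown to be unchanged. Without stated strand use, reads of 10 members that overlap a gene of 1 CPM or more on the opposite strand (CCNA2, CDC25C, FOXM1, KIF18A, KIF20A, KIF2C, KIF4A, NUF2, SPC24 and SPC25) cannot be told apart from it. CENPA and PRC1 overlap such a gene on the same strand, and AURKA and CDC20 have pseudogenes at 2.67 and 2.46 CPM. Values per library are given for the 16 members with the smallest p and the 4 highest and 4 lowest in TPM, and a few more were named after their values were seen. Members and lists were chosen with earlier results of these data known. Printed sequence was kept to sites of 30 bases and to stretches outside annotated exons. Of the 5 genes most like the members, 1 is not reported here. Figures were drawn with matplotlib 3.10.9.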

Additional observations from a re-analysis of the deposited data

How the results depend on the processing

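Whether the replicate numbers pair the libraries was not settled by the correlations. Deviations from the group means correlated at -0.114, 0.263 and 0.256 for numbers 1, 2 and 3. For unlike numbers they ran from -0.355 (siControl 3 with siANXA1 2) to 0.226 (siControl 1 with siANXA1 2). With the replicate block, 0 members were called and 2 stood at an unadjusted p under 0.05 (FOXM1 and HMMR), beside 1 without it. Over all genes 4.52% were lower and 3.70% higher at that p with the block. The count of called members was 0 under every alternative except DESeq2, which called 1 (HMMR). At an unadjusted p under 0.05 there were 2 members with library totals, upper quartile scaling, limma-voom, the strict filter or protein coding transcripts. Over all genes, 4.02% to 5.23% were lower and 2.84% to 3.91% higher in these settings. There were 3 members with DESeq2, beside 6.20% lower and 4.61% higher over all genes. With the side of the first principal component there were 7, beside 6.76% and 7.04%. With the most abundant transcript there were 0, beside 3.18% and 2.43%. Leaving out 1 library gave 1 to 9 (9 without siControl replicate 3, 4 without siANXA1 replicate 2, 3 without siControl replicate 2). Over all genes that share was 10.1% lower and 9.46% higher without siControl replicate 3, and 7.11% and 4.20% without siANXA1 replicate 2. It was 2.14% and 2.04% without siControl replicate 2. With any other library left out, 1.92% to 2.63% were lower and 1.98% to 2.25% higher. Leaving out 1 library gave 7 to 27 members without overlap, 27 without siControl replicate 3 and 16 without siANXA1 replicate 2. Fewer libraries overlap less by construction, and over all genes the share rose from 14.6% to 43.1% and 34.1%. The members' median log2 fold change was -0.161 with the most abundant transcript and between -0.0912 and 0.0109 with a library left out; the cause was not tested. Of the 16 named members, 14 kept their direction under all 17 alternatives. TTK turned to -0.67 with the most abundant transcript, and MKI67 ranged from -0.45 (without siANXA1 replicate 2) to 1.85 with a library left out. With no filter the members without overlap were 7 lower and 2 higher, in place of 4 and 3. Over all 34795 genes of that setting the share without overlap was 10.3%, in place of 14.6%. UBE2C, with 5 to 20 counts a library, had too few counts to judge, and the reason for its low counts was not tested.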
